A study of Homo sapiens with 6 samples.

Results

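Lymphoma cells that had been cultured for 5 days with monocytes were compared directly with the same cells cultured for 5 days with T cells. The comparison used 4 of the 6 arrays of the series, 2 per coculture, chosen by their labels alone, and all 32321 probe sets of the array. Every difference below is the mean of the monocyte coculture arrays minus the mean of the T cell coculture arrays on the log2 scale, so that a positive value means a higher level beside monocytes. The 2 arrays of DEV cells in monoculture served as a reference level. DEV is an established line from a patient with nodular lymphocyte-predominant Hodgkin lymphoma, a B cell lymphoma whose tumour cells lie scattered among T cells and macrophages in tissue.

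In the T cell coculture, DEV cells had been grown beside CD3-positive T cells that were isolated untouched from the blood of healthy donors. In the monocyte coculture they had been grown beside CD14-positive monocytes that were taken out of blood by binding the beads. The blood cells were then removed from both cocultures with magnetic beads against CD4, CD8 and CD14, and 40 ng of RNA from the remaining cells was amplified for each array. The bead step is described for the cocultures only, so its effect cannot be told apart from that of coculture in any comparison with monoculture. All groups share the single cell line, so the data describe DEV cells and not the disease at large, and the number of donors behind each array is not given in the sources used here. The arrays were described as representative replicates, and nothing says that they came from separate donors, so the spread between them may be partly technical.

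T cells and monocytes reach a B cell by different routes. T cells deliver contact signals such as CD40 ligand and cytokines of the interleukin family, which in normal lymphoid tissue support B cell activation and division. Monocytes and the macrophages they turn into secrete chemokines, growth factors and inflammatory cytokines, consume nutrients and take up dying cells. A B cell line responds through its cell cycle, its nutrient and protein stress pathways and its immune surface molecules, and the genes below are ordered by these programmes.

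The 6 arrays had medians between 5.64 and 5.73 and no missing values. T cell coculture replicates 1 and 2 stood farther apart than any other pair of one group, with 303 probe sets more than 1 log2 unit apart, against 156 for the monocyte pair and 128 for the monoculture pair. T cell coculture replicate 1 and monocyte coculture replicate 1 differed by that much in only 125 probe sets. Values without T cell coculture replicate 1 are therefore given beside many of the genes and lists below.

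The labels name purified DEV cells, and the remaining blood cell signal was read from marker genes before any other result. LYZ read 5.00 and 5.09 with T cells, 8.42 and 5.06 with monocytes and 5.02 and 4.98 in monoculture, where LYZ encodes lysozyme, one of the most abundant monocyte transcripts. High LYZ was thus found in monocyte coculture replicate 1 alone. CD14, the monocyte surface marker used for isolation, read 6.15 and 5.42 in the monocyte arrays and 5.40 and 5.41 in the T cell arrays. FCER1G, a signalling chain of Fc receptors on myeloid cells, read 6.24 and 5.05 in the monocyte arrays and 4.94 and 5.17 in the T cell arrays, again with a high value in replicate 1 only. The defining monocyte markers FCN1, CSF1R, CD163 and S100A8 differed by -0.025, 0.060, 0.096 and 0.16. Of the 36 measured monocyte and macrophage markers, 3 stood more than 1 log2 unit above all monoculture and T cell arrays in monocyte coculture replicate 1 and 1 did so in replicate 2. The summed linear level of the list was 3308 and 2640 in the monocyte arrays, 2323 and 2195 in the T cell arrays and 2564 and 2709 in monoculture. The median difference over the list was 0.093. A higher mean with monocytes was found in 30 of 36 markers, where 50.6% of all probe sets had one. An unadjusted p under 0.05 was found in 4 of these (11.1% of the list, against 3.47% of all probe sets). Without monocyte coculture replicate 1 the median was 0.011, and in the replicate 2 pair alone 18 of the 36 markers were lower with monocytes. In bulk RNA, fewer cells of a type and less RNA per cell cannot be told apart.

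T cell markers were less visible. CD3D, a chain of the T cell receptor complex, read 8.07 and 8.12 with T cells and 7.55 and 7.47 with monocytes, but DEV cells in monoculture already read 8.26 and 8.33. CD3E, another chain of that complex, read 5.50 and 5.12 with T cells and 5.06 and 4.98 in monoculture. CD2, CD4 and CD8A read 5.35 and 5.33, 5.30 and 5.29 and 5.56 and 5.76 with T cells, next to 5.16 and 5.22, 5.23 and 5.25 and 5.66 and 5.56 in monoculture. IL7R, the interleukin 7 receptor of resting T cells, read 5.52 and 5.16 with T cells against 4.99 and 4.88 with monocytes, and 4.89 and 4.81 in monoculture. Of 31 measured T cell markers, 11 were higher in both T cell arrays than in both monoculture arrays, and the summed linear level of the list was 2231 and 2301 with T cells, 1830 and 1835 with monocytes and 1907 and 2188 in monoculture. Of these 31 markers 23 had a lower mean with monocytes, where 49.4% of all probe sets did. An unadjusted p under 0.05 was found in 5 of the 23. The 5 are 16.1% of the list, against 4.03% of all probe sets. They include CD3D, LEF1 and CCL5, which DEV cells in monoculture already expressed. LEF1 read 6.76 and 6.86 and CCL5 8.02 and 8.92 in monoculture, so this count is no measure of remaining T cells alone. The B cell label held in all arrays, with the B cell identity list summing to 9086 and 7798 with T cells and 8258 and 7280 with monocytes.

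**Figure D1:**
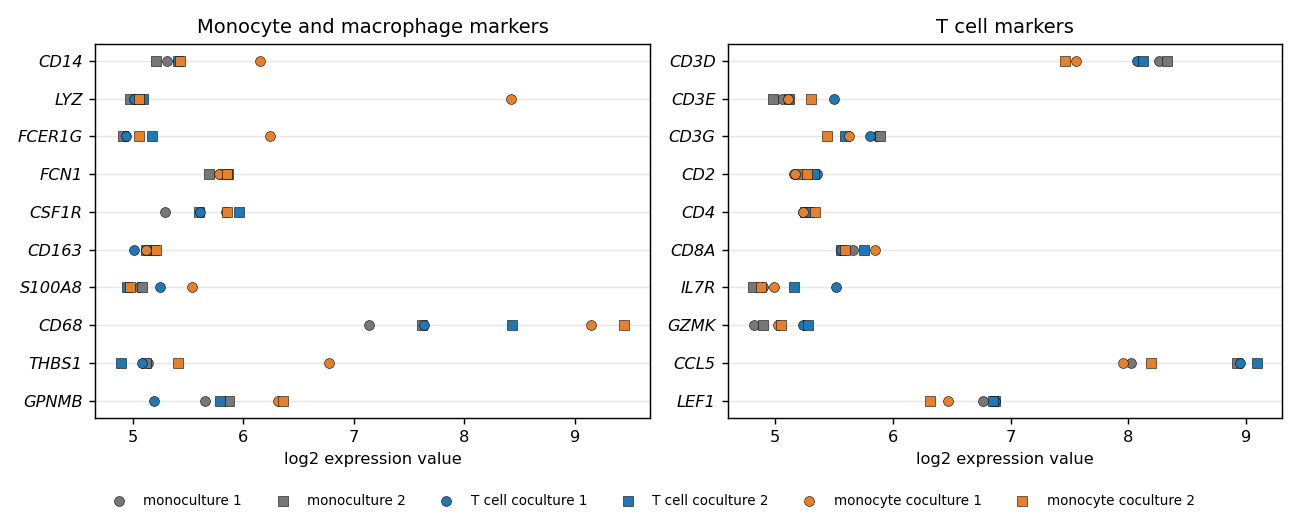
Log2 expression values (x axis) of 10 monocyte and macrophage markers and 10 T cell markers (rows) in each of the 6 arrays. Grey points are monoculture, blue T cell coculture and orange monocyte coculture, with circles for replicate 1 and squares for replicate 2. LYZ, CD14 and FCER1G stand out in monocyte coculture replicate 1 only, CD68 is high in both monocyte arrays, and CD3D is high in monoculture already.

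No probe set passed the test. In limma, 0 of 32321 probe sets (0%) had an adjusted p under 0.05, and the smallest adjusted p was 0.444. At an unadjusted p under 0.05, 2422 probe sets (7.49%) stood apart, 1120 of them higher with monocytes (3.47%) and 1302 lower (4.03%). Both monocyte arrays lay above both T cell arrays for 17.6% of probe sets and below them for 17.1%, while 50.6% had a higher mean with monocytes and 49.4% a lower one. All counts of list members are to be read beside these shares. Differences were small as a rule, with a median of 0.0019, an SD over probe sets of 0.199 and a range from -1.73 to 1.88. Only 41 probe sets were at least 2-fold apart without overlap, 25 higher and 16 lower with monocytes. The median 95% interval, unadjusted for the number of probe sets, reached 0.285 on either side of the difference. It is no detection limit of the adjusted test, since even the -1.73 at the end of the range was not called. An exact permutation test of 2 arrays against 2 cannot go below 0.333 and was not used. The genes below are therefore described by their size, their standard error (after ±) and whether the arrays overlapped, and none of them is a called difference.

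The largest higher values beside monocytes belonged to genes of several kinds. SPRR2D read 5.61 and 5.89 with T cells, 6.76 and 8.18 with monocytes and 5.35 and 5.45 in monoculture, a difference of 1.72 ± 0.42 (3.30-fold higher, adjusted p = 0.505 in limma). SPRR2D encodes a small proline-rich protein of the cornified envelope of skin, and both monocyte arrays lay above all others. CD68, a lysosomal glycoprotein that is abundant in macrophages, read 7.64 and 8.44 with T cells, 9.15 and 9.45 with monocytes and 7.13 and 7.62 in monoculture, a difference of 1.26 ± 0.29 (2.40-fold higher). Unlike LYZ, it was high in both monocyte arrays, and T cell coculture replicate 2 also exceeded monoculture. PMEL, a melanosome protein, followed the same order with 6.48 and 7.03 with T cells against 7.83 and 8.12 with monocytes and 5.88 and 6.14 in monoculture, a difference of 1.22 ± 0.21 (2.34-fold higher, adjusted p = 0.444 in limma). GPNMB, a relative of PMEL in lysosomes and macrophages, read 5.19 and 5.78 with T cells against 6.31 and 6.35 with monocytes, a difference of 0.85 ± 0.20 that was 0.55 without T cell coculture replicate 1. CD68 and GPNMB belong to the monocyte and macrophage list, so the summed level of that list includes them and is no separate measure here. The part of remaining monocytes in their values was not tested.

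Secreted factors and surface receptors made up much of the rest. CCL3 read 8.22 and 7.13 with T cells, 9.69 and 8.44 with monocytes and 8.64 and 9.65 in monoculture, a difference of 1.38 ± 0.56. CCL3 is a chemokine that attracts monocytes and T cells, and its levels beside monocytes spanned those of monoculture while both T cell arrays were lower than monoculture. THBS1, which encodes the matrix protein thrombospondin 1, read 6.77 and 5.41 with monocytes and 5.08 and 4.89 with T cells, and only monocyte coculture replicate 1, the array with high LYZ, departed clearly from the monoculture values of 5.13 and 5.12. INHBE, a subunit of activin, read 6.51 and 6.35 with T cells against 7.48 and 7.42 with monocytes, a difference of 1.02 ± 0.21. MET, the receptor of hepatocyte growth factor, read 6.85 and 6.50 with T cells against 7.75 and 7.59 with monocytes and 6.47 and 6.76 in monoculture, a difference of 1.00 ± 0.16. LY96, the partner of the endotoxin receptor TLR4, differed by 0.96 ± 0.19, and P2RX7, a receptor for extracellular ATP, by 0.96 ± 0.17. Both genes, like MET and INHBE, had their 2 monocyte arrays above all 4 others. TP53INP1, a stress gene induced by p53, read 6.31 and 6.55 with T cells against 7.31 and 7.48 with monocytes, a difference of 0.96 ± 0.15. LGALS1, which encodes the immunosuppressive lectin galectin 1, read 7.18 and 8.18 with T cells against 8.50 and 8.74 with monocytes, a difference of 0.94 ± 0.35 that was 0.43 without T cell coculture replicate 1. BAG6, a chaperone of membrane proteins, differed by 1.42 ± 0.40 in 1 of its 2 probe sets and by -0.23 in the other.

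Histone genes headed the lower end. H2BC14 read 10.06 and 9.62 with T cells, 8.39 and 7.82 with monocytes and 10.08 and 9.99 in monoculture, a difference of -1.73 ± 0.22 (3.32-fold lower, adjusted p = 0.444 in limma). H2BC14 encodes a core histone H2B, and the 2 monocyte arrays lay more than 1 log2 unit below the other 4. H4C4, a histone H4 gene, read 7.22 and 7.07 with T cells against 6.17 and 6.14 with monocytes, with monoculture between them at 6.75 and 6.73, a difference of -0.99 ± 0.094. H4C3 differed by -1.04 ± 0.24, H2AC21 by -0.96 ± 0.29 (-0.57 without T cell coculture replicate 1), H2AC8 by -0.96 ± 0.26 and the linker histone gene H1-4 by -0.97 ± 0.39. Of the 12 largest lower values, 6 thus belonged to histones, whose genes are near-identical relatives, so that the signal of single members is uncertain.

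The other genes at the lower end concerned the cytoskeleton, division and signalling. COTL1, an actin-binding protein, read 9.53 and 9.22 with T cells against 8.43 and 8.12 with monocytes and 9.55 and 9.50 in monoculture, a difference of -1.10 ± 0.15 (2.14-fold lower). ACTG2, a muscle-type actin whose probes may also read other actins, read 9.29 and 9.06 with T cells against 8.47 and 7.80 with monocytes, all under the 10.72 and 10.84 of monoculture, a difference of -1.04 ± 0.22. Both actin-related genes were thus lowest beside monocytes. KIF20A, a kinesin of the dividing cell's midzone, read 7.55 and 7.12 with T cells against 6.47 and 6.30 with monocytes, a difference of -0.95 ± 0.18 (1.94-fold lower). MCOLN2, an endolysosomal cation channel of B cells, read 7.16 and 6.97 with T cells against 6.07 and 6.13 with monocytes, a difference of -0.96 ± 0.12. CCL5, a chemokine made by T cells and by activated B cells, read 8.95 and 9.10 with T cells against 7.96 and 8.20 with monocytes, and 8.02 and 8.92 in monoculture, so that DEV cells alone already covered most of its range. RUVBL1, a chromatin and helicase cofactor of MYC, differed by -0.96 ± 0.38 but by only -0.37 without T cell coculture replicate 1.

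**Figure D2:**
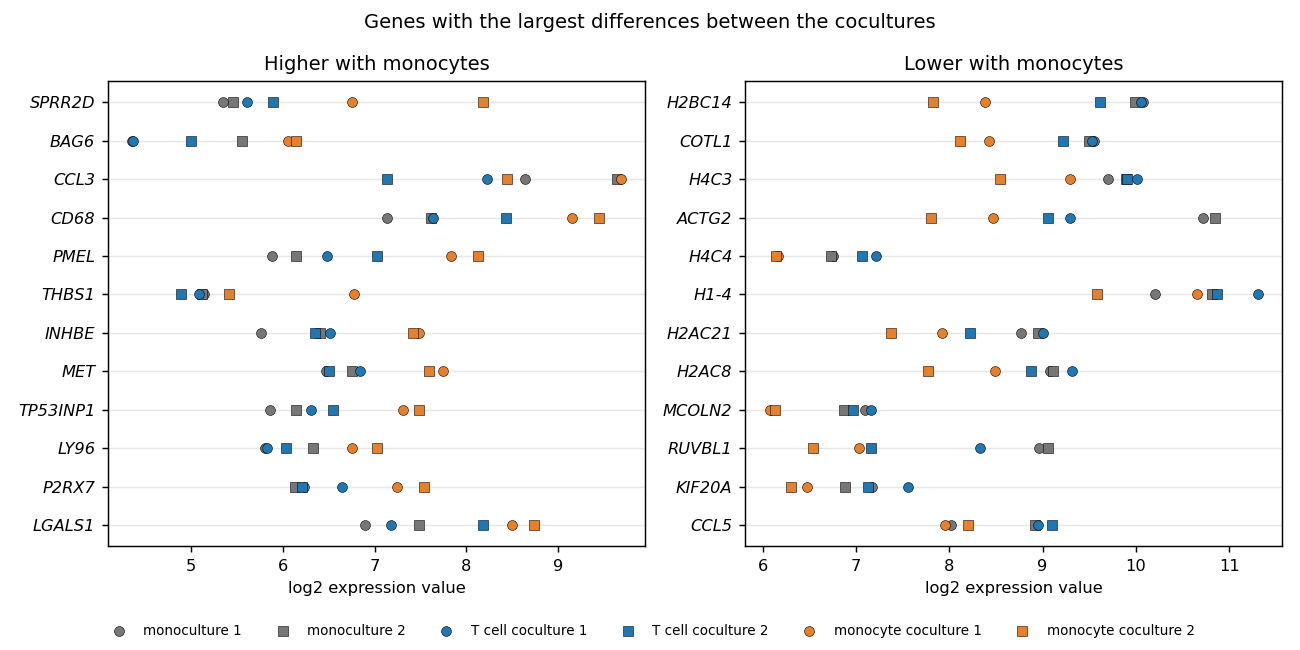
Log2 expression values (x axis) of the 12 genes with the largest higher and the 12 with the largest lower difference (rows) in each of the 6 arrays, coloured as grey for monoculture, blue for T cell coculture and orange for monocyte coculture, with circles for replicate 1 and squares for replicate 2. In every row the orange and blue points do not overlap, as the choice of genes requires, and H2BC14 shows the widest gap among the lower genes at -1.73.

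Genes of mitosis had lower means beside monocytes. All 39 measured members had a lower mean beside monocytes (38 after quantile normalization), where 49.4% of all probe sets did, and 19 of them (48.7%) had an unadjusted p under 0.05, where 4.03% of all probe sets did. Their median difference was -0.42, with single genes from -0.95 to -0.017. CDC20, the activator of the anaphase-promoting complex, read 7.70 and 7.49 with T cells against 6.69 and 6.83 with monocytes, with monoculture between them at 7.17 and 7.15, a difference of -0.83 ± 0.11 (1.78-fold lower). UBE2C, the ubiquitin-conjugating enzyme of that complex, read 7.75 and 7.95 with T cells against 7.23 and 7.21 with monocytes and 7.46 and 7.50 in monoculture, a difference of -0.62 ± 0.10. Both genes were thus above monoculture beside T cells and below it beside monocytes. NEK2, a kinase of the centrosome, read 7.97 and 8.12 with T cells against 7.37 and 7.31 with monocytes and differed by -0.71 ± 0.12, and BIRC5, which encodes the mitotic protein survivin, read 9.68 and 9.67 with T cells against 9.10 and 9.20 with monocytes and differed by -0.52 ± 0.089. TOP2A, which untangles replicated DNA, read 10.01 and 9.95 with T cells against 9.45 and 9.41 with monocytes and 9.78 and 9.38 in monoculture, a difference of -0.55 ± 0.14, and DLGAP5, a spindle protein, read 8.71 and 8.57 with T cells against 7.97 and 7.99 with monocytes, a difference of -0.66 ± 0.18. 

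The mitotic list did not sit at the same place in all arrays. Relative to the monoculture mean its median was 0.37 and -0.018 in the T cell arrays and -0.13 and -0.30 in the monocyte arrays, so that the higher of the values beside T cells came from replicate 1. Without T cell coculture replicate 2 the median difference was -0.58. Without T cell coculture replicate 1 it was -0.22, and 31 of the 39 genes kept a lower mean beside monocytes. CDC20, UBE2C, NEK2 and BIRC5 then differed by -0.72, -0.72, -0.78 and -0.52. Of the 39 genes, 4 had both T cell arrays above and both monocyte arrays below both monoculture arrays, where 0.925% of all probe sets did.

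Promoters of mitotic genes carry 2 short elements that their timing is known to depend on, the cell cycle genes homology region (CHR, TTTGAA) and the CCAAT box. The 200 bases before the start of CDC20, TOP2A and DLGAP5, taken from RefSeq on build GRCh38.p14, are shown because they belong to members lower beside monocytes and hold both elements. Each runs 5′ to 3′ on the strand of the gene, and capitals mark either element on either strand. The stretches lie at chr1:43358781-43358980, plus strand, at chr17:40417897-40418096, minus strand, and at chr14:55191586-55191785, minus strand, upstream of the genes.
CDC20: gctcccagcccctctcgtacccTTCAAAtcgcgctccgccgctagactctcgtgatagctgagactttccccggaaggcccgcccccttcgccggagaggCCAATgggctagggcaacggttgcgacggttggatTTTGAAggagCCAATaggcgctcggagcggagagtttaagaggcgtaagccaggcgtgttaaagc
TOP2A: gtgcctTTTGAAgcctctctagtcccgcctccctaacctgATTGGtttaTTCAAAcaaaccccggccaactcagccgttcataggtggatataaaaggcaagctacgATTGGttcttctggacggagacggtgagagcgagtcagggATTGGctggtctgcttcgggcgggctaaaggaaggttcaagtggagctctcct
DLGAP5: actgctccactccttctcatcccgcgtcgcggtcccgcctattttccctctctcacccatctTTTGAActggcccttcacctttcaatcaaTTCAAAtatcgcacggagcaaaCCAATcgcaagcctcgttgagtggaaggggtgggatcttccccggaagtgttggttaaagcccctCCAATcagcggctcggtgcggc
Of the 39 genes, 33 had a promoter in the table, which runs from 250 bases before to 50 after the start. TTTGAA was found on either strand in 23 of them (69.7%), against 12.1% of all 15843 promoters, and CCAAT in 25 (75.8%), against 36.4%. Both motifs were chosen for this list and their presence describes the genes, not the cause of the difference.

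Replication-dependent histone genes, which are transcribed as cells copy their DNA, had mostly lower means as well. Of 56 measured members, 49 had a lower mean beside monocytes, where 49.4% of all probe sets did. An unadjusted p under 0.05 was found in 18 of these and in 0 of the 7 with a higher mean. The 18 are 32.1% of the list, against 4.03% of all probe sets. The median difference was -0.38. This list was drawn up after the values were seen, so its count is a description. H2BC17 read 6.51 and 6.66 with T cells against 5.92 and 5.50 with monocytes and 6.33 and 6.31 in monoculture, a difference of -0.87 ± 0.15. H2BC4 read 6.78 and 6.95 with T cells against 6.34 and 6.21 with monocytes and differed by -0.59 ± 0.11. Relative to monoculture the list's median was 0.13 and -0.054 in the T cell arrays and -0.24 and -0.48 in the monocyte arrays, and the median difference was -0.16 without T cell coculture replicate 1. H2BC14 and H2BC17 kept differences of -1.51 and -0.94 in that setting. Their promoters, at chr6:27814822-27815021, plus strand, and at chr6:27893225-27893424, plus strand (GRCh38.p14), are shown because these genes had some of the widest gaps, with capitals marking CCAAT on either strand.
H2BC14: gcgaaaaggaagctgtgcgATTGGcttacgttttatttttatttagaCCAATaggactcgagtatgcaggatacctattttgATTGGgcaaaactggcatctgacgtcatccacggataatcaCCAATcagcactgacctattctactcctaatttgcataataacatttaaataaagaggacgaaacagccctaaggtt
H2BC17: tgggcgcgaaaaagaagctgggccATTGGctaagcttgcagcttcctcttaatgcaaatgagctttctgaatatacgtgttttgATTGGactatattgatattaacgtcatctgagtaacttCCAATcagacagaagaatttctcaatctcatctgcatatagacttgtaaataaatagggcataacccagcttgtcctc
CCAAT was found in 44 of the 51 histone promoters in the table (86.3%), again against 36.4% of all promoters.

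Most DNA replication genes had lower means, but the median depended on 1 array. Of 46 members 39 had a lower mean, where 49.4% of all probe sets did, with a median difference of -0.22. At an unadjusted p under 0.05, 6 were lower (13.0%, against 4.03% of all). CDT1, which licenses replication origins, read 7.45 and 7.32 with T cells against 7.04 and 6.67 with monocytes, a difference of -0.53 ± 0.14. RPA3, a subunit of the single-strand binding complex, read 6.54 and 6.52 with T cells against 6.20 and 6.18 with monocytes, a difference of -0.34 ± 0.087. RRM2, the small subunit of ribonucleotide reductase, read 8.11 and 7.61 with T cells against 7.42 and 6.88 with monocytes, and the histone chaperone gene CHAF1B read 7.48 and 7.23 with T cells against 7.07 and 6.95 with monocytes. The list's median relative to monoculture was -0.016 and -0.44 in the T cell arrays and -0.29 and -0.62 in the monocyte arrays. Without T cell coculture replicate 1 the median difference was 0.053, on the other side of 0, and without T cell coculture replicate 2 it was -0.44. An E2F site (TTTCCCGC or TTTGGCGC) was found in 17 of 39 promoters of the list (43.6%), against 3.06% of all. Among G1 cyclins and CDK inhibitors, 0 of 23 members had an unadjusted p under 0.05 in either direction. E2F1, which drives entry into replication, differed by -0.34 ± 0.15 (-0.19 without T cell coculture replicate 1) and CDK6 by -0.20 ± 0.089.

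**Figure D3:**
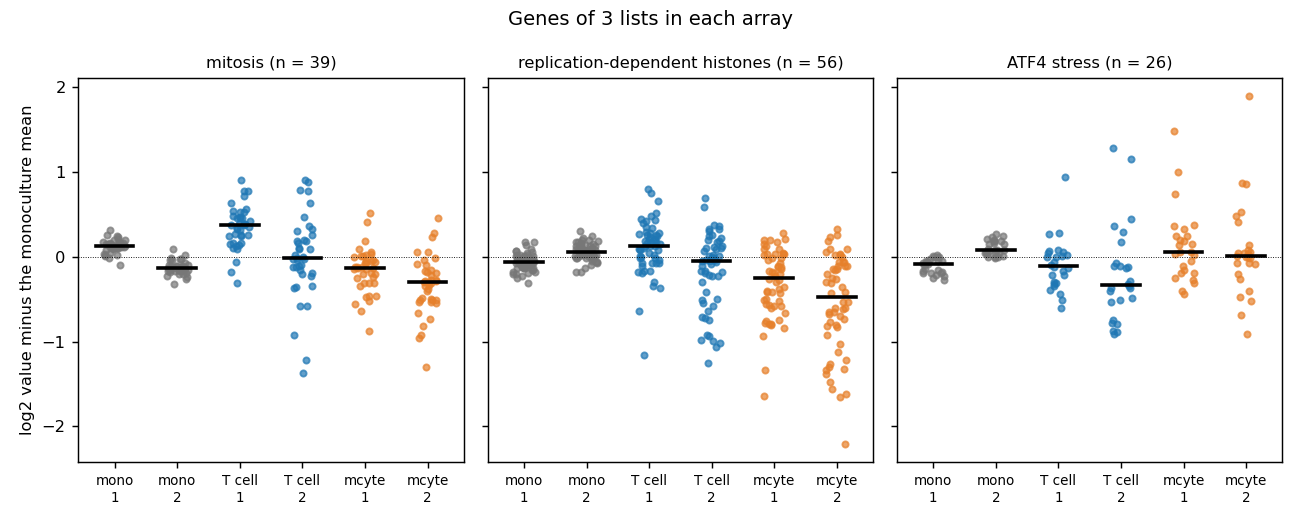
Log2 value minus the monoculture mean (y axis) of each gene of 3 lists in each of the 6 arrays (x axis; mono, monoculture; mcyte, monocyte coculture). Points are genes and black bars are medians. The bars of the mitosis list stand at 0.37 and -0.018 in the T cell arrays and at -0.13 and -0.30 in the monocyte arrays, those of the histone list at 0.13 and -0.054 against -0.24 and -0.48, and those of the ATF4 list at -0.11 and -0.33 against 0.059 and 0.0048.

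MYC, the growth regulator that the study followed by other assays, was lower than monoculture in every coculture array. MYC read 8.42 and 6.54 with T cells, 6.71 and 6.38 with monocytes and 10.03 and 10.12 in monoculture. The difference between the cocultures was -0.93 ± 0.56, with a 95% interval from -2.29 to 0.42 and an adjusted p of 0.794 in limma, and without T cell coculture replicate 1 it was 0.0094. MAX, the partner of MYC on DNA, read 8.41 and 8.53 with T cells against 8.22 and 8.26 with monocytes, a difference of -0.23 ± 0.092. Of 50 MYC target genes, 39 had a lower mean beside monocytes, where 49.4% of all probe sets did. At an unadjusted p under 0.05, 9 were lower (18%, against 4.03% of all) and 0 higher. The median of the list was -0.13, and -0.050 without T cell coculture replicate 1. PAICS, an enzyme of purine synthesis, read 7.68 and 7.53 with T cells against 6.97 and 7.13 with monocytes and 7.93 and 7.88 in monoculture, a difference of -0.55 ± 0.11. ODC1, the first enzyme of polyamine synthesis, read 10.95 and 10.82 with T cells against 10.45 and 10.45 with monocytes, a difference of -0.44 ± 0.093, and MTHFD1, an enzyme of folate metabolism, read 9.17 and 8.76 with T cells against 8.53 and 8.14 with monocytes, a difference of -0.63 ± 0.19. Without T cell coculture replicate 1 these 3 differed by -0.48, -0.37 and -0.43. The E-box CACGTG was found in 13 of 40 promoters of the list (32.5%), against 8.88% of all. Ribosomal protein genes were split in their means, with 16 of 32 higher and 16 lower, but the replicates went opposite ways. In the replicate 1 pair only 6 of the 32 were lower with monocytes, at a median difference of 0.11. In the replicate 2 pair all 32 were lower, at a median of -0.12. The direction of this list thus depended on the replicate.

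Genes of the amino acid and protein stress response controlled by ATF4 had mostly higher means beside monocytes. Of 26 members 23 had a higher mean beside monocytes, where 50.6% of all probe sets did. At an unadjusted p under 0.05, 7 were higher (26.9%, against 3.47% of all) and 1 was lower (3.85%, against 4.03%). Their median difference was 0.25 and ran from 0.20 to 0.33 over all alternatives, the settings without T cell coculture replicate 1 included. CTH, which makes cysteine from cystathionine, read 7.71 and 7.26 with T cells against 8.25 and 8.49 with monocytes and 7.83 and 8.19 in monoculture, a difference of 0.89 ± 0.20 (1.85-fold higher). TRIB3, a pseudokinase that feeds back on ATF4, read 6.87 and 6.89 with T cells against 7.60 and 7.46 with monocytes, a difference of 0.65 ± 0.14, and CHAC1, which degrades glutathione, read 6.11 and 6.01 with T cells against 6.60 and 6.44 with monocytes, a difference of 0.46 ± 0.13. The member on the other side at that p was ATF5, a relative of ATF4, which read 10.16 and 10.03 with T cells against 9.70 and 9.24 with monocytes, a difference of -0.62 ± 0.20. The list's median lay below monoculture beside T cells (-0.11 and -0.33) and near it beside monocytes (0.059 and 0.0048). TGATGNAA, the core of the element that ATF4 and its partners bind, was found in 6 of 23 promoters (26.1%), against 2.53% of all, and in 1 of the 8 members with an unadjusted p under 0.05.

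Genes of the unfolded protein response differed member by member. Of 21 genes 3 were higher (14.3%) and 1 lower (4.76%) at an unadjusted p under 0.05, where 3.47% and 4.03% of all probe sets were. XBP1, the transcription factor of this response and of plasma cells, read 7.48 and 7.22 with T cells against 7.97 and 8.16 with monocytes and 7.52 and 7.70 in monoculture, a difference of 0.72 ± 0.14 (1.64-fold higher). EDEM1 and SEL1L, which serve the disposal of misfolded proteins, read 7.55 and 7.48 with T cells against 8.24 and 8.04 with monocytes and 6.38 and 6.40 with T cells against 6.64 and 6.76 with monocytes, differences of 0.63 ± 0.10 and 0.31 ± 0.091. All 3 lay below monoculture beside T cells and above it beside monocytes, an order that 1.15% of all probe sets had. PDIA6, a folding enzyme, went the other way with 9.28 and 9.24 with T cells against 8.91 and 8.70 with monocytes, a difference of -0.46 ± 0.10. Of 18 heat shock genes, 12 had a lower mean, where 49.4% of all probe sets did. Among them were the chaperone gene HSP90AB1 with a difference of -0.45 ± 0.090 and HSPA8 with -0.42 ± 0.12. The mitochondrial chaperone gene HSPA9 instead read 9.68 and 9.45 with T cells against 9.98 and 9.99 with monocytes, a difference of 0.41 ± 0.11.

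Genes of glycolysis and of oxidative phosphorylation had mostly lower means beside monocytes, and the other metabolic lists were mixed. Of 31 genes of glycolysis and hypoxia 22 had a lower mean, where 49.4% of all probe sets did, with a median of -0.094. At an unadjusted p under 0.05, 3 were higher (9.68%, against 3.47% of all) and 5 lower (16.1%, against 4.03%). GAPDH, a glycolytic enzyme often used as a reference gene, read 12.98 and 13.16 with T cells against 12.63 and 12.53 with monocytes and 12.77 and 12.87 in monoculture, a difference of -0.49 ± 0.11, and ENO1, a later enzyme of the pathway, differed by -0.64 ± 0.19. SLC2A3, a glucose transporter, read 8.51 and 8.56 with T cells against 8.19 and 8.16 with monocytes, both above the 7.42 and 7.57 of monoculture. NDRG1, a hypoxia and stress gene, read 5.83 and 6.18 with T cells against 6.65 and 6.65 with monocytes and 5.74 and 5.75 in monoculture, a difference of 0.64 ± 0.13. Of 28 genes of oxidative phosphorylation 24 had a lower mean, again against 49.4% of all probe sets. The median of this list was -0.12, and its complex I gene NDUFV1 differed by -0.36 ± 0.12. Leaving out T cell coculture replicate 1 or 2 gave that list a median of -0.21 or -0.061. Among NRF2 and oxidative stress genes, HMOX1, which degrades haem, had a higher mean beside monocytes, 7.54 and 7.42 with T cells against a mean of 8.04 ± 0.056 (SD, n = 2) with monocytes, a difference of 0.56 ± 0.10. PRDX1, PGD and CAT, which detoxify peroxide or supply NADPH for it, differed by -0.44 ± 0.10, -0.39 ± 0.093 and -0.45 ± 0.14, the last -0.27 without T cell coculture replicate 1. Cholesterol synthesis genes had 0 higher and 0 lower of 16 at that p, and among sterol and lipid storage genes MYLIP, which degrades the LDL receptor, differed by -0.40 ± 0.12. The metallothionein gene MT1X read 8.80 and 9.25 with T cells against 8.61 and 8.55 with monocytes, a difference of -0.45 ± 0.18 (-0.67 without T cell coculture replicate 1).

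Lysosomal genes had mostly higher means beside monocytes, with 19 of 27 on that side, 4 at an unadjusted p under 0.05 and 0 lower at that p. The 4 are 14.8% of the list, against 3.47% of all probe sets, and 50.6% of all had a higher mean. NPC1, which exports cholesterol from lysosomes, read 6.51 and 6.30 with T cells against 6.90 and 6.94 with monocytes and 6.54 and 6.54 in monoculture, a difference of 0.51 ± 0.10. PSAP, the precursor of the saposins, read 7.89 and 8.45 with T cells against 8.66 and 8.89 with monocytes and 7.32 and 7.51 in monoculture, a difference of 0.61 ± 0.20 (0.33 without T cell coculture replicate 1), and the autophagy gene WIPI1 differed by 0.37 ± 0.094. The list's median was 0.14 and 0.024 without T cell coculture replicate 1. Lysosomal genes are also abundant in macrophages, and the part of remaining monocytes in these values was not tested.

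Genes of survival and death differed in opposite directions. BCL2, which blocks mitochondrial cell death, read 8.19 and 8.30 with T cells against 8.71 and 9.04 with monocytes and 7.79 and 8.03 in monoculture, a difference of 0.63 ± 0.15 (1.54-fold higher). Its antagonist BCL2L11, also called BIM, read 8.02 and 8.05 with T cells against 7.30 and 7.47 with monocytes and 8.47 and 8.03 in monoculture, a difference of -0.65 ± 0.16. BAK1, which forms the pore, read 7.41 and 6.85 with T cells against 6.45 and 6.45 with monocytes, a difference of -0.68 ± 0.19 (-0.40 without T cell coculture replicate 1), and BID differed by -0.34 ± 0.097. These 4 genes were named for the smallest p of the list, so their directions do not stand for it. The whole list of 26 was balanced at 3 higher (11.5%) and 4 lower (15.4%) at an unadjusted p under 0.05. Over all probe sets 3.47% and 4.03% were. Of 26 p53 target genes 19 had a higher mean, where 50.6% of all probe sets did, and 6 had an unadjusted p under 0.05, all higher. These 6 are 23.1% of the list, against 3.47% of all probe sets. RRM2B, a subunit of ribonucleotide reductase, differed by 0.45 ± 0.11, TIGAR, a regulator of glycolysis, by 0.37 ± 0.11, and TNFRSF10B, a death receptor, by 0.41 ± 0.13. Of 20 FOXO and quiescence genes 12 had a lower mean, where 49.4% of all probe sets did. Their median of -0.10 became -0.15 without T cell coculture replicate 1 and 0.055 without T cell coculture replicate 2. The direction of this list thus depended on 1 array. At an unadjusted p under 0.05, 2 were higher (10%, against 3.47% of all) and 0 lower. These were SESN1 at 0.37 ± 0.15 (0.56 without T cell coculture replicate 1) and YPEL3 at 0.34 ± 0.12. Among early response genes ZFP36L1, which destabilises short-lived transcripts, differed by -0.50 ± 0.11.

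Interferon genes were counted in 2 lists. Of 43 type I interferon genes 8 were higher and 2 lower beside monocytes at an unadjusted p under 0.05, with a median of 0.073. These are 18.6% and 4.65% of the list, against 3.47% and 4.03% of all probe sets. USP18, which limits the interferon receptor, read 5.26 and 5.34 with T cells against 5.75 and 5.81 with monocytes, a difference of 0.49 ± 0.097, and IFITM1, an antiviral membrane protein, read 6.94 and 7.20 with T cells against 7.46 and 7.85 with monocytes, a difference of 0.59 ± 0.16. ISG20, an exonuclease, differed by -0.43 ± 0.12. The interferon-stimulated response element (ISRE) was found on either strand in 22 of 34 promoters of the list (64.7%), against 3.17% of all. Of 32 interferon gamma genes 0 were higher and 4 lower (12.5%) at that p. GBP4 differed by -0.66 ± 0.21. The B cell and myeloid regulator IRF8 differed by -0.43 ± 0.13, or -0.27 once T cell coculture replicate 1 was left out. The gamma list had a median of -0.053. Without T cell coculture replicate 2 the type I and gamma medians were -0.010 and 0.0054, on the other side of 0 in both lists, and the difference between the lists was not tested.

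Antigen presentation genes were counted by class, and all values here are RNA levels. By flow cytometry the study found no class I or class II molecules on the surface of DEV cells, also during coculture. All 11 measured genes of the class I pathway had a lower mean beside monocytes (10 after quantile normalization), where 49.4% of all probe sets did. Their median was -0.28, and -0.25 without T cell coculture replicate 1. ERAP2, which trims peptides, read 9.38 and 9.02 with T cells against 8.55 and 8.67 with monocytes, a difference of -0.59 ± 0.14, the immunoproteasome subunit PSMB8 read 8.78 and 8.46 with T cells against 8.26 and 8.17 with monocytes, and the peptide transporter TAP1 read 9.41 and 9.37 with T cells against 9.18 and 9.03 with monocytes. Class II genes were balanced at 6 higher and 6 lower. HLA-DRB5 and HLA-DPA1, chains of class II molecules, read 6.01 and 6.23 with T cells against 6.68 and 6.74 with monocytes and 6.99 and 7.46 with T cells against 7.80 and 8.12 with monocytes, differences of 0.59 ± 0.11 and 0.73 ± 0.21, and HLA-DPA1 differed by 0.33 in its other probe set. HLA genes have near-identical relatives, so that the assignment of these values to single genes is uncertain. Class II genes are also strongly expressed in monocytes, and the part of remaining monocytes was not tested.

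CD274, which encodes the checkpoint ligand PD-L1, gave a difference near 0 with every coculture array above monoculture. CD274 read 8.22 and 8.65 with T cells, 8.20 and 8.60 with monocytes and 7.24 and 7.41 in monoculture. The difference was -0.035 ± 0.19 with a 95% interval from -0.51 to 0.44, which leaves room for a modest difference in either direction, and the arrays overlapped. Of 26 checkpoint and costimulatory ligands, 2 were higher (7.69%) and 1 lower (3.85%) at an unadjusted p under 0.05. Over all probe sets 3.47% and 4.03% were. ICOSLG, the ligand of the T cell costimulator ICOS, read 6.68 and 6.66 with T cells against 6.95 and 6.98 with monocytes, a difference of 0.30 ± 0.086, and CD40, the receptor of the T cell helper signal, read 9.03 and 8.82 with T cells against 8.54 and 8.44 with monocytes, a difference of -0.43 ± 0.13. CD80, a ligand of CD28, read 9.43 and 10.12 with T cells against 8.85 and 9.49 with monocytes, and these arrays overlapped.

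Of 31 NF-kB target genes 8 were lower (25.8%) and 1 higher (3.23%) at an unadjusted p under 0.05. Over all probe sets 4.03% and 3.47% were. The median of the list was -0.16, and -0.078 without T cell coculture replicate 1. NFKB1, a subunit of NF-kB and its own target, read 9.11 and 8.96 with T cells against 8.42 and 8.51 with monocytes and 9.37 and 9.24 in monoculture, a difference of -0.57 ± 0.10 (1.48-fold lower). RELB, a subunit of the alternative pathway, differed by -0.34 ± 0.095, BCL3, a coactivator, by -0.38 ± 0.11, and TRAF1, an adaptor of TNF receptors, by -0.39 ± 0.11. All 4 were lower beside monocytes in both arrays, with RELB and BCL3 higher than monoculture beside T cells. The largest value of the list was the opposite, since the neutrophil chemokine gene CXCL8 read 8.92 in monocyte coculture replicate 1, the array with high LYZ, and 5.81 in replicate 2, next to 5.64 and 5.72 with T cells. CXCL8 was named after its values were seen.

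Of 44 cytokine genes 33 had a higher mean beside monocytes, where 50.6% of all probe sets did. At an unadjusted p under 0.05, 7 were higher (15.9%, against 3.47% of all) and 2 lower (4.55%, against 4.03%). The median of the list was 0.092, and -0.0031 without monocyte coculture replicate 1, the array with high LYZ. In the replicate 2 pair alone 22 of the 44 were lower, and the part of remaining monocytes in the list was not tested. IL23A, a subunit of interleukin 23, read 7.01 and 7.42 with T cells against 7.97 and 8.16 with monocytes and 6.30 and 6.48 in monoculture, a difference of 0.85 ± 0.16 (1.80-fold higher). CSF1, the growth factor of macrophages, read 5.67 and 5.59 with T cells against 6.03 and 5.88 with monocytes, a difference of 0.32 ± 0.10. LTB, a membrane lymphotoxin of B and T cells, read 7.15 and 6.88 with T cells against 6.68 and 6.67 with monocytes, a difference of -0.34 ± 0.12 (-0.20 without T cell coculture replicate 1). IL23A and CSF1 were thus highest beside monocytes and lowest in monoculture. Of 41 receptors 1 was higher (2.44%) and 3 were lower (7.32%) at that p, near the 3.47% and 4.03% of all probe sets. TNFRSF17, the survival receptor BCMA of plasma cells, read 6.08 and 5.97 with T cells against 6.86 and 6.66 with monocytes and 6.90 and 7.20 in monoculture, a difference of 0.73 ± 0.14 (1.66-fold higher). Its level was therefore lower beside T cells than in monoculture and close to monoculture beside monocytes. CCR7, the homing receptor for lymph nodes, read 10.18 and 7.30 with T cells and 10.45 and 9.64 with monocytes, so that a single array, T cell coculture replicate 2, carried its difference of 1.31 ± 0.87, and this gene too was named after its values were seen. Of 24 JAK, STAT and SOCS genes 20 had a lower mean, where 49.4% of all probe sets did. At an unadjusted p under 0.05, 1 was lower (4.17%, against 4.03% of all). PTPN2, a phosphatase that limits JAK signalling, differed by -0.37 ± 0.090.

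Of 28 B cell identity genes 1 was higher and 4 were lower beside monocytes at an unadjusted p under 0.05, where 3.47% and 4.03% of all probe sets were. FCRL1, a surface receptor of B cells, read 6.96 and 6.82 with T cells against 6.30 and 6.44 with monocytes and 7.01 and 6.84 in monoculture, a difference of -0.52 ± 0.11, and VPREB3, a chaperone of the B cell receptor, read 6.74 and 6.34 with T cells against 5.81 and 5.88 with monocytes, a difference of -0.70 ± 0.18. BLK, a kinase at the B cell receptor, read 6.69 and 6.65 with T cells against 6.16 and 6.28 with monocytes, a difference of -0.45 ± 0.091. LCP2, the adaptor SLP-76, went the other way with 8.63 and 8.58 with T cells against 9.26 and 9.50 with monocytes and 7.45 and 7.82 in monoculture, a difference of 0.78 ± 0.15. Of the germinal centre genes, the elongation factor gene ELL3 read 7.12 and 6.86 with T cells against 6.28 and 6.23 with monocytes and 7.74 and 7.66 in monoculture, a difference of -0.74 ± 0.12, while KLHL6, which is needed for germinal centres, differed by 0.37 ± 0.090 and RGS13 by 0.31 ± 0.10. SLAMF7, a surface receptor of plasma cells, had a mean of 7.87 ± 0.18 (SD, n = 2) with T cells against 8.59 and 8.70 with monocytes, a difference of 0.77 ± 0.16, and its relative CD84 differed by -0.39 ± 0.11. The plasma cell list, which includes XBP1, TNFRSF17 and SLAMF7, had these 3 higher and MZB1 lower at an unadjusted p under 0.05, with a median over all 20 members of -0.022.

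Genes of the actin cytoskeleton had mostly lower means beside monocytes, with 23 of 31 on that side, 10 of them at an unadjusted p under 0.05 and 0 higher at that p. The 10 are 32.3% of the list, against 4.03% of all probe sets, and 49.4% of all had a lower mean. ACTB, the main cytoplasmic actin, read 12.41 and 12.28 with T cells and 12.71 and 12.72 in monoculture, and both monocyte arrays were below these, a difference of -0.55 ± 0.15. TMSB10, which binds actin monomers, read 11.34 and 11.52 with T cells against 11.02 and 10.76 with monocytes, a difference of -0.53 ± 0.14, and the microtubule gene STMN1 differed by -0.38 ± 0.095 in 1 of its 2 probe sets and by 0.0093 in the other. The median of the list was -0.23, -0.19 without T cell coculture replicate 1, -0.12 after quantile normalization and -0.10 without monocyte coculture replicate 2. Adhesion genes were balanced in mean, and those with the smallest p were the integrin genes ITGAX and ITGAV, at 0.35 ± 0.087 and 0.28 ± 0.092, and the selectin ligand gene SELPLG, at 0.36 ± 0.13. ITGAX is also carried by monocytes and read 5.61 and 5.69 with T cells against 6.02 and 5.97 with monocytes.

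**Figure D4:**
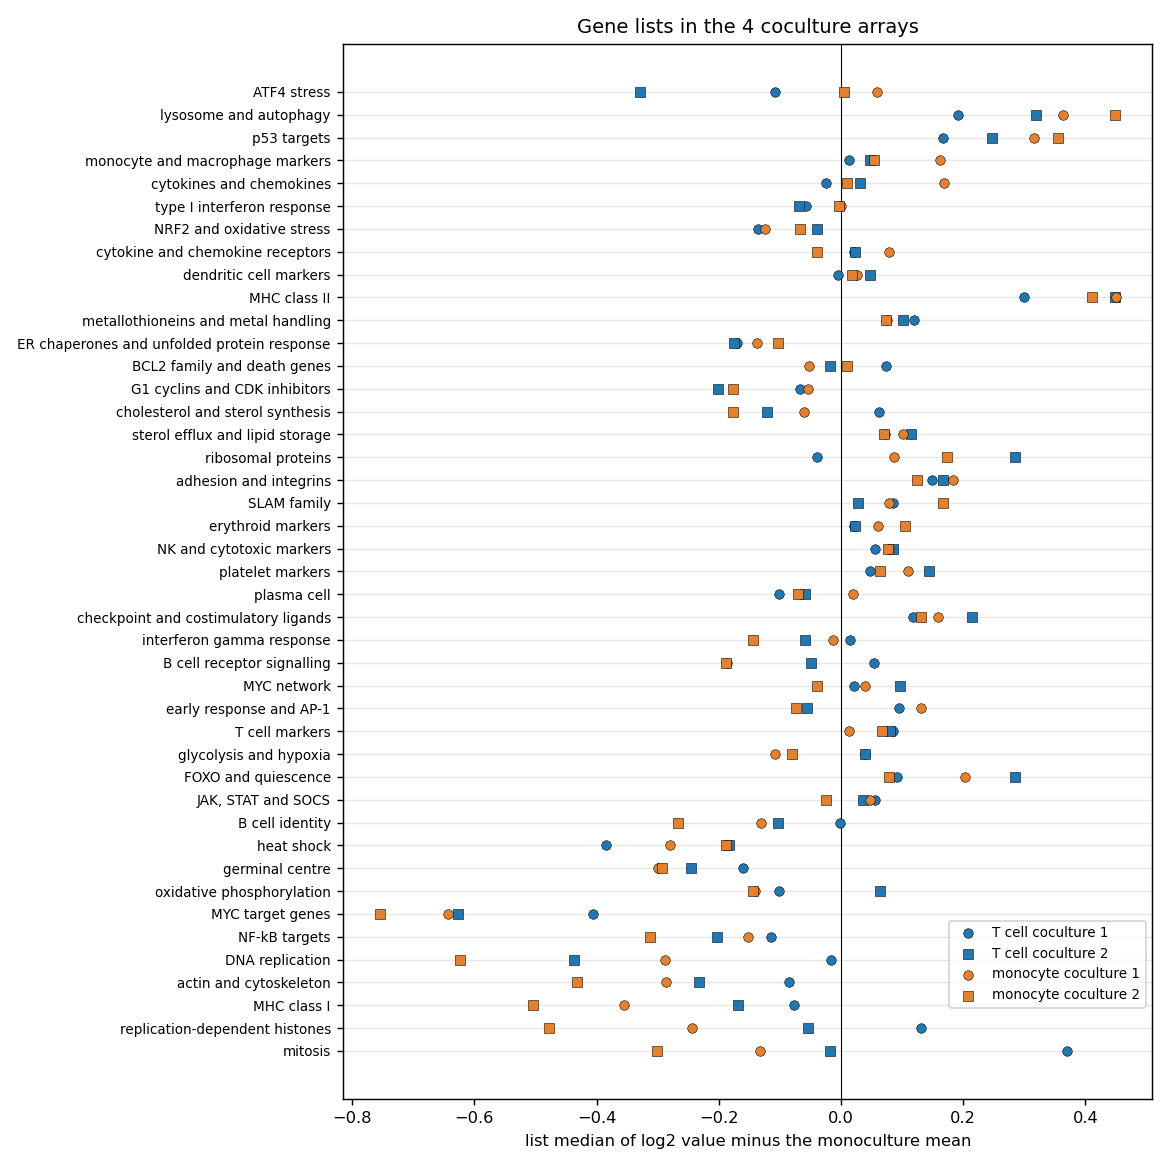
Median over the genes of each of 43 lists (rows) of the log2 value minus the monoculture mean (x axis) in T cell coculture (blue) and monocyte coculture (orange), with circles for replicate 1 and squares for replicate 2, ordered by the median difference between the cocultures from highest at the top. Orange points lie right of blue ones for ATF4 stress, lysosome and p53 target genes and left of them for class I, histone and mitosis genes, and MYC target genes lie below 0 in all 4 arrays.

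**Figure D5:**
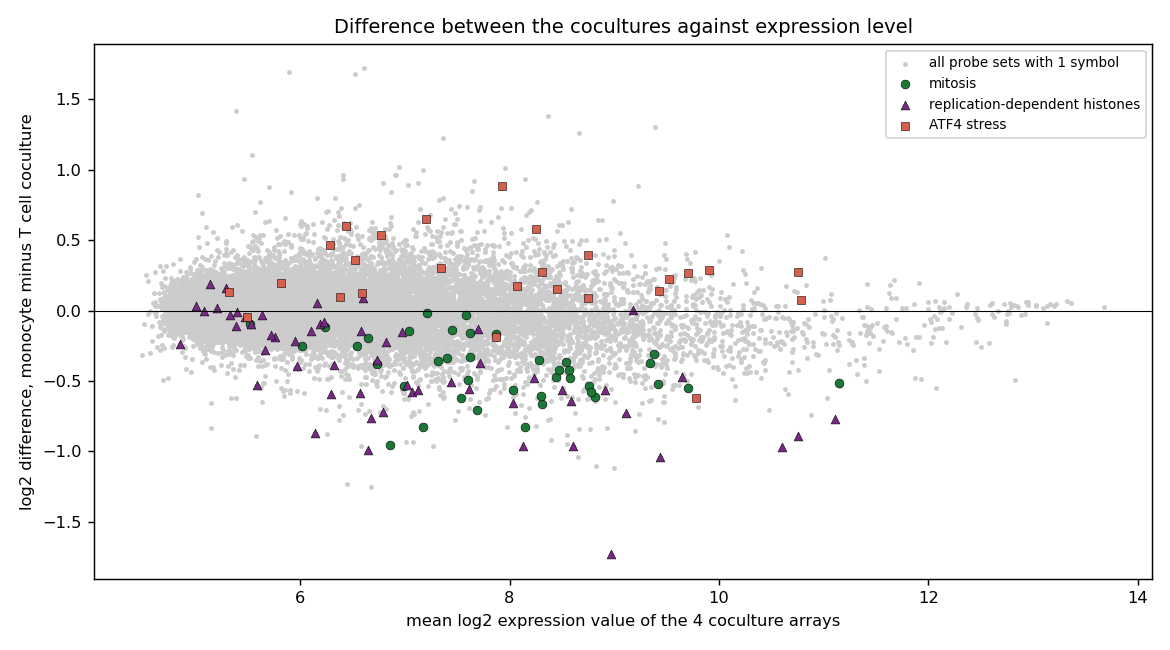
Log2 difference between monocyte and T cell coculture (y axis) against the mean log2 value of the 4 coculture arrays (x axis) for probe sets with 1 gene symbol (grey), with mitosis genes as green circles, replication-dependent histone genes as purple triangles and ATF4 stress genes as red squares. All 39 mitosis genes lie below 0 in the values as deposited (38 after quantile normalization), at low and high levels alike, and 23 of 26 ATF4 genes lie above it.

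Markers of other blood cells gave small differences. The lists of NK and cytotoxic, platelet and erythroid markers had 0 members at an unadjusted p under 0.05 in either direction, and their medians were -0.010, -0.016 and -0.0091. Dendritic cell markers had 2 lower, the transcription factor gene BATF3 at -0.40 ± 0.12, which read 8.37 and 8.65 in monoculture and is therefore expressed by DEV cells themselves, and LAMP3 at -0.27 ± 0.093. Probe sets of small RNAs were counted as a class. Of 197 small nucleolar and Cajal body RNAs 3 were higher and 16 lower at an unadjusted p under 0.05, with a median of -0.039, and of 179 microRNAs 3 were higher and 2 lower. Over all probe sets 3.47% were higher and 4.03% lower at that p. Of 15 immunoglobulin and T cell receptor segments 0 were higher and 2 lower at that p.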

How the data were processed

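Total RNA of 6 DEV samples (40 ng each) was amplified and hybridised to Affymetrix human Gene ST arrays. The deposited table holds log2 values per probe set that the authors had normalized, by a method not given in the sources used here. Values were used as deposited. Of 32321 probe sets 19158 carried 1 gene symbol, 1388 several and 11775 none in the platform table, and 19128 were found in RefSeq (GRCh38.p14). A mean per group was fitted with limma 3.58.1 (R 4.3.3, lmFit and eBayes, 3 residual and 3.08 prior degrees of freedom), with Benjamini-Hochberg adjustment over all probe sets, called at an adjusted p under 0.05. The code was tested on simulated data. The number of arrays limits the precision.

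Genes named were the 12 largest differences each way without overlap at an unadjusted p under 0.05, up to 4 members of each list with the smallest p, MYC, CD274 and defining markers. For a gene with several probe sets, lists used the one with the highest mean value. The comparison, the members and the 42 lists were chosen with earlier results of these data known, and the histone list and the motifs for histone and ATF4 genes were added after the values were seen. FCER1G, TOP2A, DLGAP5, CXCL8 and CCR7 were named outside the rule, after their values were seen. Alternatives were quantile normalization, median centring, leaving out the dimmest 40 percent, the 4 coculture arrays alone, a replicate block and leaving out each array.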

Additional observations from a re-analysis of the deposited data

Results flagged for a closer look

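Both cocultures were set against the same monoculture arrays, and a named gene was picked out here when its T cell arrays lay on one side of both monoculture arrays and its monocyte arrays on the other. Over all probe sets this held for 299 with T cells above and monocytes below (0.925%) and for 371 the other way round (1.15%). Most named genes were chosen by the size or p of this same difference, which favours such an order. Their number therefore cannot be set against these shares. The difference between the cocultures was tested with limma, and 0 of these genes passed at an adjusted p under 0.05. Values below are that difference, monocyte minus T cell coculture on the log2 scale.

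Above monoculture beside T cells and below it beside monocytes were genes of division and of histones: CDC20 (-0.83), UBE2C (-0.62), BIRC5 (-0.52), H4C3 (-1.04), H4C4 (-0.99), H2BC17 (-0.87), the replication genes CDT1 (-0.53) and RPA3 (-0.34) and the microtubule gene STMN1 (-0.38, and 0.0093 in its other probe set). The same order was found in the death genes BAK1 (-0.68, and -0.40 without T cell coculture replicate 1) and BID (-0.34), in the metabolic and chaperone genes GAPDH (-0.49), CYC1 (-0.32) and HSP90AB1 (-0.45), and in the signalling and immune genes ZFP36L1 (-0.50), RELB (-0.34), GRB2 (-0.32), BACH2 (-0.30) and LAMP3 (-0.27).

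Below monoculture beside T cells and above it beside monocytes were the protein disposal genes XBP1 (0.72), EDEM1 (0.63) and SEL1L (0.31), the stress and metabolic genes CTH (0.89), HMOX1 (0.56), NPC1 (0.51) and TIGAR (0.37), and THBS1 (1.11), IFI44 (0.37), RGS13 (0.31) and the carbonic anhydrase gene CA1 (0.22). THBS1 departed clearly from monoculture only in monocyte coculture replicate 1, the array with high LYZ. IFI44 and CA1 read under the array medians in every array. For several genes the margin was narrow. IFI44 read 4.9277 in T cell coculture replicate 2 against 4.9325 in monoculture replicate 2. HMOX1 read 7.5367 in T cell coculture replicate 1 against 7.5381 in monoculture replicate 1. RGS13 read 9.3751 in T cell coculture replicate 1 against 9.3838 in monoculture replicate 2. Among the genes of the opposite order, H4C3 read 9.9052 in T cell coculture replicate 2 against 9.8980 in monoculture replicate 2.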

How the results depend on the processing

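The count of probe sets called by limma was 0 under every alternative except without monocyte coculture replicate 2, where it was 1, the LYZ probe set, so that leaving out single arrays gave 0 to 1. Probe sets at an unadjusted p under 0.05 numbered 2422 and ran from 1653 (without the dimmest 40 percent) to 3352 (without T cell coculture replicate 1). Those higher and lower with monocytes numbered 1120 and 1302, 1334 and 1150 after quantile normalization, 1020 and 1371 after median centring, and 1896 and 1456 without T cell coculture replicate 1. Probe sets at least 2-fold apart without overlap numbered 41 and between 41 and 178 when single arrays were left out, since a lone array overlaps less easily: 178 and 136 without T cell coculture replicates 1 and 2, and 136 and 103 without monocyte coculture replicates 1 and 2. Leaving out an array assumes that the lone array varies like the other groups. Across T cell and monocyte coculture, samples of the same replicate number deviated with a correlation of 0.260, which with 2 numbers pairs nothing, and the fit with the replicate block called 0 probe sets and had 2627 at an unadjusted p under 0.05. Of 2079 settings of named genes 14 changed direction, in 11 genes, and 0 of the 24 leading genes were among them. CD274 was 0.032 after quantile normalization. Over the settings without 1 array, MYC ran from -1.87 to 0.0094, MYCL from -0.39 to 0.040, RPL28 from -0.36 to 0.045, LY9 from -0.011 to 0.54, CD274 from -0.25 to 0.18, CD3E from -0.29 to 0.089, CD4 from -0.059 to 0.038, CD8A from -0.068 to 0.19, FCN1 from -0.060 to 0.011, CSF1R from -0.12 to 0.24 and S100A8 from -0.12 to 0.44. List medians moved by more than the spread between arrays in 72 of 516 settings.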
